A study of Mus musculus with 8 samples.

Results

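The 8 genes described here mark mesothelium, the flat epithelial sheet that lines the body cavities and covers the organs within them. They are Msln, Upk3b, Upk1b, Lrrn4 and Gpm6a, which encode proteins of the cell surface, and Wt1, Bnc1 and Bnc2, which encode zinc finger transcription factors. They were taken by name from a table of counts for 55353 gene entries, and each name matched 1 entry. The counts came from mRNA sequencing of cultured mouse vascular smooth muscle cells of the aorta, labelled E12 KO, E12 WT, E47 KO or E47 WT, with 2 libraries per genotype and 8 in all. E12 and E47 are proteins made from alternative exons of 1 gene, Tcf3. They are basic helix-loop-helix transcription factors (E proteins) that bind the DNA word CANNTG, known as the E-box, and Id proteins hold them off DNA. KO denotes the knockout of the named isoform and WT its wild type. The labels name no strain, age or sex, and do not say how the cells were derived or the isoforms disrupted. All 4 groups had been frozen and revived in culture before lysis. The libraries of a genotype are independent RNA extractions. Whether they stem from different cultures or mice is not stated, so a p-value here reflects extraction-to-extraction spread, possibly technical alone. Nothing in the labels shows more than 1 cell population per genotype, so an effect of the lost isoform and a difference between cell populations cannot be told apart.

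Mesothelial cells keep epithelial features, such as keratins and a surface coated with glycoproteins, next to mesenchymal ones. They also share genes with the epicardium, the mesothelium of the heart, whose cells can leave the sheet and give rise to fibroblasts and to smooth muscle of the coronary vessels. Wt1 is a regulator of that sheet and of the passage out of it. None of the 8 genes is expressed in mesothelium alone: the uroplakins Upk3b and Upk1b are named for the bladder lining, Gpm6a and Lrrn4 are also known from neurons, and Bnc1 from skin and germ cells.

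Library totals ran from 13909230 to 27517374 counts. Values are CPM, counts scaled to a common library size with edgeR's TMM factors, and changes are log2 fold changes from edgeR's quasi-likelihood test with Benjamini-Hochberg adjustment over 13992 tested genes. An adjusted p under 0.05 counts as past the test. Tcf3 was at 145 and 143 CPM in the E12 KO libraries, 109 and 107 CPM in E12 WT, 128 and 128 CPM in E47 KO, and 94.5 and 93.7 CPM in E47 WT, and a count per gene does not show which isoform is missing. The smooth muscle label was met unevenly. Acta2, smooth muscle actin, averaged 1638 to 3566 CPM by genotype, whereas Myh11, smooth muscle myosin, averaged 2.43 CPM in E12 KO, 7.44 in E12 WT, 6.92 in E47 KO and 98.2 in E47 WT. The E47 WT libraries stood apart in the level of endothelial markers. Of 12 such markers 9 to 11 had a count in each of the 8 libraries. Their summed level was 773 and 705 CPM in E47 WT, against 5.01 to 13.1 CPM in the other 6 libraries. Pecam1, Emcn and Cdh5 led them with 202, 177 and 170 CPM, and Cldn5 was at 0 in all 8 libraries. In bulk RNA, fewer cells of a type and less RNA per cell cannot be told apart.

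Together the 8 genes held 0.105% and 0.105% of all counts in the E12 KO libraries, against 0.154% and 0.140% in E12 WT. They held 0.0401% and 0.0400% in E47 KO, against 0.0226% and 0.0216% in E47 WT. The E12 populations thus carried more of these transcripts than the E47 populations in every library. All 8 genes passed the filter on low counts, which asks for 10 counts at the median library size in at least 2 libraries. For Msln, Upk3b, Upk1b and Gpm6a both libraries of every genotype reached that level. Wt1, Lrrn4 and Bnc1 did not reach it in E47 WT, nor did Bnc2 in E12 KO, so these entered the test through the groups in which they were high.

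**Figure D1:**
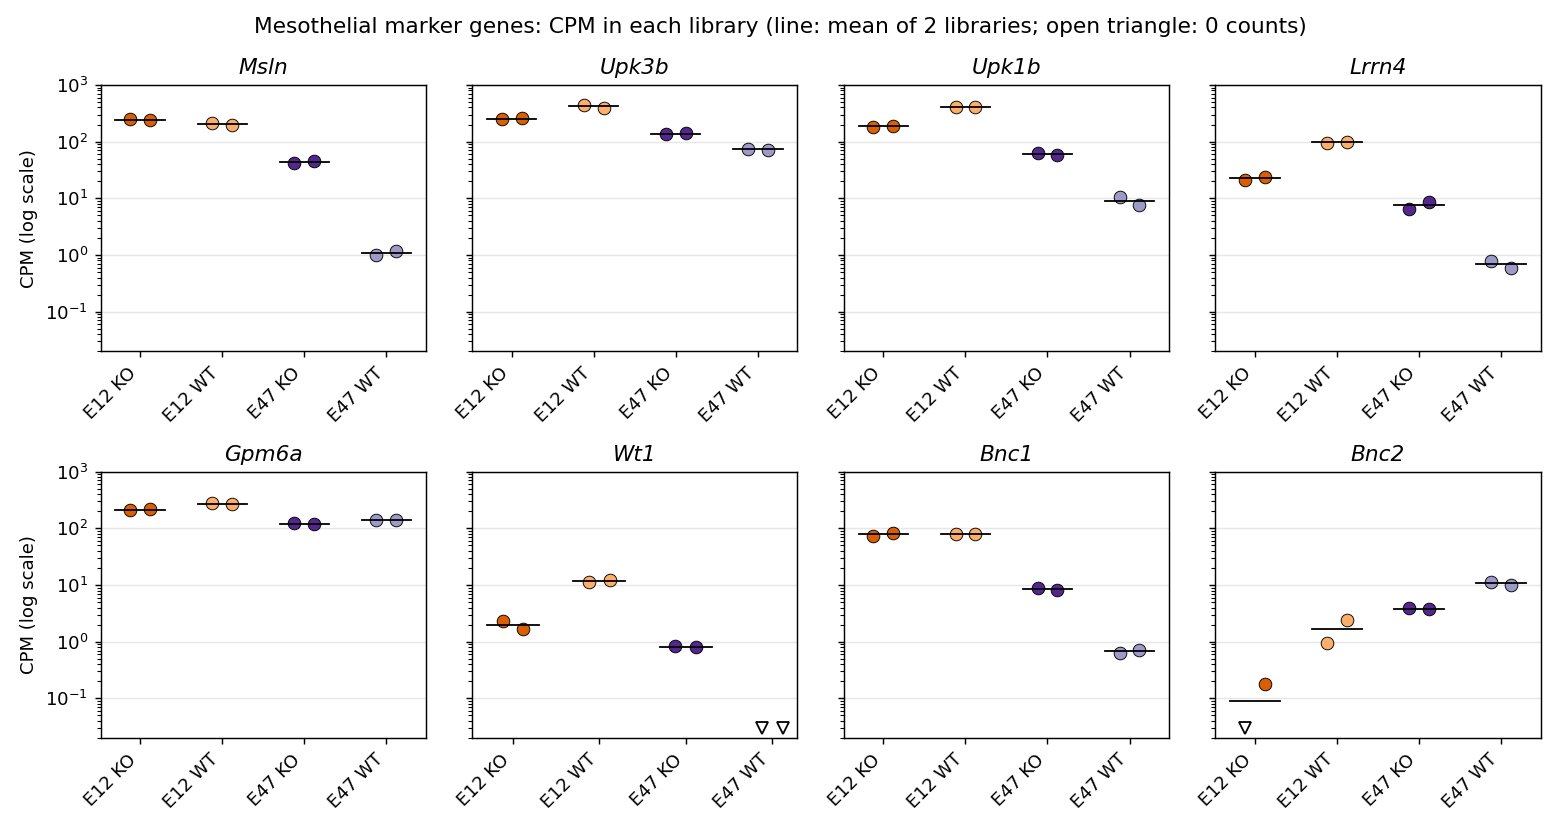
Level of each of the 8 genes in every library, in CPM on a log axis. Points are libraries, coloured by genotype, and lines are the mean of the 2 libraries of a genotype. Open triangles mark libraries with 0 counts. For Msln, Upk3b, Upk1b, Lrrn4, Wt1 and Bnc1 the E47 WT libraries are the lowest, and for Bnc2 they are the highest.

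The 250 bases before the RefSeq transcription start (build GRCm38.p6) are shown for Upk3b, Lrrn4 and Bnc1, since the E proteins under study bind the E-box and these 3 genes were all higher in E47 KO than in E47 WT. Capitals mark E-boxes, searched as CANNTG, which reads as the same pattern on both strands. Each sequence runs 5′ to 3′ on the gene's own strand.
Upk3b, chr5:136038246-136038495, plus strand: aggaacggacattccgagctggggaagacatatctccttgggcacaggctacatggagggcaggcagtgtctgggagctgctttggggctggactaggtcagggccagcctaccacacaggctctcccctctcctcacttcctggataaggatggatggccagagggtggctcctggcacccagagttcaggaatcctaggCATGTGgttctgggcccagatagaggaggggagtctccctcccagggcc
Lrrn4, chr2:132880863-132881112, minus strand: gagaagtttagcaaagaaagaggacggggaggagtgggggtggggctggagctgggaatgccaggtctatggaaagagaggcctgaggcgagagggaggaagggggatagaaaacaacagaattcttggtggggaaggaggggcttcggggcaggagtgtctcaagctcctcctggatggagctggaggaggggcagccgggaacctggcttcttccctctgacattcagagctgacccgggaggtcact
Bnc1, chr7:81992300-81992549, minus strand: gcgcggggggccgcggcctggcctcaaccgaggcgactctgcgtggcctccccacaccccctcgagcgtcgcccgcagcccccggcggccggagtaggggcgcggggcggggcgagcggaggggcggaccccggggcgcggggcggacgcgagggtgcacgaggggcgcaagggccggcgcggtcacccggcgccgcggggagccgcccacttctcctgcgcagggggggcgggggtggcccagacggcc

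The Upk3b window held 1 E-box, CATGTG, which begins 49 bases before the start, and the Lrrn4 and Bnc1 windows held 0. The Bnc1 window was 83.6% G and C, against 60.8% for Upk3b and 59.2% for Lrrn4. Gpm6a has 2 listed starts, with 3 and 1 E-boxes before them, and the window of Bnc2 held 1. The Gpm6a window with 3 E-boxes ends at base 54779433 of chromosome 8. That is far upstream of the gene as GENCODE M21 draws it, which begins at 54954843. The starts listed for Bnc2 and Lrrn4 lie inside the genes as GENCODE M21 draws them, so the last bases of the printed Lrrn4 window fall within that gene. Of 32851 windows of the same length in the table, 66.2% held CANNTG. The E-box words CAGCTG, on both strands, and CACCTG, read as CAGGTG on the other strand, were in 13% and 17.2% of all windows and in none of the 6 windows of these genes. Msln, Upk1b and Wt1 were not among the windows.

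Msln encodes mesothelin, a glycoprotein held on the surface by a lipid anchor that binds the mucin MUC16. It lies on chromosome 17 from 25748613 to 25754378, minus strand (GRCm38). Msln was at 253 and 237 CPM in E12 KO, 214 and 196 CPM in E12 WT, 42.4 and 45.7 CPM in E47 KO, and 1.0 and 1.17 CPM in E47 WT. No genotypes overlapped, and the E47 WT libraries were far below the rest, with 44 counts between them. Msln rose in E47 KO against E47 WT by 5.30 on the log2 scale (SE 0.134, adjusted p = 2.2e-13), which is 39.4-fold. It was also higher in E12 KO than in E12 WT, by 0.26 (SE 0.0705, adjusted p = 0.0076), or 1.196-fold. That small rise missed the threshold without the first E12 KO library (0.22, adjusted p = 0.067) and without the second E12 WT library (0.20, adjusted p = 0.052).

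Upk3b and Upk1b encode uroplakins, proteins of rigid membrane plaques in the bladder. UPK3B crosses the membrane once, and UPK1B is a tetraspanin. Upk3b (chromosome 5, 136038496 to 136046487, plus strand) was at 249 and 258.5 CPM in E12 KO, 441 and 399 CPM in E12 WT, 136 and 142 CPM in E47 KO, and 75.0 and 71.1 CPM in E47 WT. It fell in E12 KO by 0.73 (SE 0.0697, adjusted p = 7.6e-07) and rose in E47 KO by 0.93 (SE 0.0732, adjusted p = 6.0e-08) on the log2 scale. All 4 genotypes were separate, E12 WT highest and E47 WT lowest, and even the lowest had 1047 and 1824 counts. Upk1b (chromosome 16, 38773184 to 38800328, minus strand) was at 182 and 191 CPM in E12 KO, 413 and 404 CPM in E12 WT, 62.9 and 57.4 CPM in E47 KO, and 10.5 and 7.68 CPM in E47 WT. It fell 2.19-fold in E12 KO (log2 change -1.13, SE 0.0859, adjusted p = 6.3e-08) and rose 6.81-fold in E47 KO (2.77, SE 0.113, adjusted p = 2.9e-11). Its order of genotypes was that of Upk3b, over a wider range.

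Lrrn4 encodes a transmembrane protein with leucine-rich repeats. It lies on chromosome 2 from 132868305 to 132880891, minus strand. Lrrn4 was at 21.4 and 23.8 CPM in E12 KO, 95.2 and 98.3 CPM in E12 WT, 6.50 and 8.56 CPM in E47 KO, and 0.788 and 0.585 CPM in E47 WT. E12 WT stood above all other libraries, and E47 WT held 26 counts in all. Lrrn4 fell 4.28-fold in E12 KO (log2 change -2.10, SE 0.0929, adjusted p = 1.6e-10) and rose 11.2-fold in E47 KO (3.48, SE 0.232, adjusted p = 9.0e-09).

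Gpm6a encodes a proteolipid membrane glycoprotein that in neurons takes part in the growth of processes. It lies on chromosome 8 from 54954843 to 55060871, plus strand, as GENCODE M21 draws it. It was at 207 and 217 CPM in E12 KO, 279 and 264 CPM in E12 WT, 122 and 120.1 CPM in E47 KO, and 142 and 139.8 CPM in E47 WT. Its whole span across genotypes was narrower than that of any other of the 8 genes, and it was the only one of the surface protein genes to be lower in E47 KO than in E47 WT. It fell by 0.36 in E12 KO (SE 0.0643, adjusted p = 0.00035) and by 0.22 in E47 KO (SE 0.0658, adjusted p = 0.012) on the log2 scale. The E47 call missed the threshold without the second E47 KO library (-0.20, adjusted p = 0.069) and without the first E47 WT library (-0.21, adjusted p = 0.058).

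Wt1, the zinc finger regulator of kidney, gonad and epicardium, lies on chromosome 2 from 105126529 to 105173616, plus strand. It was low throughout, at 2.32 and 1.68 CPM in E12 KO, 11.2 and 12.04 CPM in E12 WT, and 0.832 and 0.802 CPM in E47 KO. Both E47 WT libraries had 0 counts, which allows up to 0.201 and 0.109 CPM on their total counts, taking 3 counts as the limit. Such limits, and the intervals below, express counting error and nothing else, because PCR copies were not told apart from independent molecules. Wt1 fell 5.71-fold in E12 KO (log2 change -2.51, SE 0.192, adjusted p = 1.3e-07). In E47 KO it had 28 counts over both libraries and was at least 10.8-fold higher than in E47 WT, with 3 counts over the group set as the floor (adjusted p = 6.4e-05). This bound, like the later ones for Wt1 against E47 WT, leaves out the counting error of the higher group. Wt1os, the antisense gene that begins just before Wt1 on the other strand, had between 0 and 3 counts in any library and shares no exon base with Wt1 in GENCODE M21. The counts are not strand-specific.

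The basonuclins Bnc1 and Bnc2 are paired zinc finger proteins, and their transcripts went opposite ways across the genotypes. Bnc1 (chromosome 7, 81966672 to 81992292, minus strand), known from basal keratinocytes and germ cells, was at 74.2 and 82.7 CPM in E12 KO, 79.2 and 79.5 CPM in E12 WT, 9.04 and 8.09 CPM in E47 KO, and 0.645 and 0.702 CPM in E47 WT. The E12 genotypes overlapped, with a log2 change of -0.02 (SE 0.0739, adjusted p = 0.86), while E47 KO was 12.5-fold above E47 WT (3.65, SE 0.194, adjusted p = 6.4e-10). Exons of another gene on the opposite strand cover 2.11% of its exon bases.

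Bnc2 (chromosome 4, 84275095 to 84675275, minus strand), known from mesenchymal cells and fibroblasts, was at 0 and 0.180 CPM in E12 KO, 0.957 and 2.47 CPM in E12 WT, 3.90 and 3.74 CPM in E47 KO, and 11.2 and 10.1 CPM in E47 WT. E47 WT was highest and E12 KO lowest, with 3 counts over its libraries. In E12 KO it was lower by a ratio of 20.6 (E12 WT over E12 KO, exact 95% interval 6.63 to 103 from 48 and 3 counts, adjusted p = 0.00025). The size of this difference rests on single libraries, since the counts were 0 and 3 in E12 KO and 15 and 33 in E12 WT. With each library left out in turn the fitted log2 change lay between -7.88 and -3.15. The value of -7.88 came without the second E12 KO library, which leaves 0 counts in E12 KO. The value of -3.15 came without the first E12 KO library. Leaving out the second E12 WT library also moved the fitted change, within that range. The adjusted p lay between 1.4e-06 and 0.0042. It fell 2.76-fold in E47 KO (log2 change -1.47, SE 0.229, adjusted p = 7.6e-05). The E12 WT libraries differed from each other by 1.37 on the log2 scale, the widest gap between libraries of a genotype among those of the 8 genes with counts in both.

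**Figure D2:**
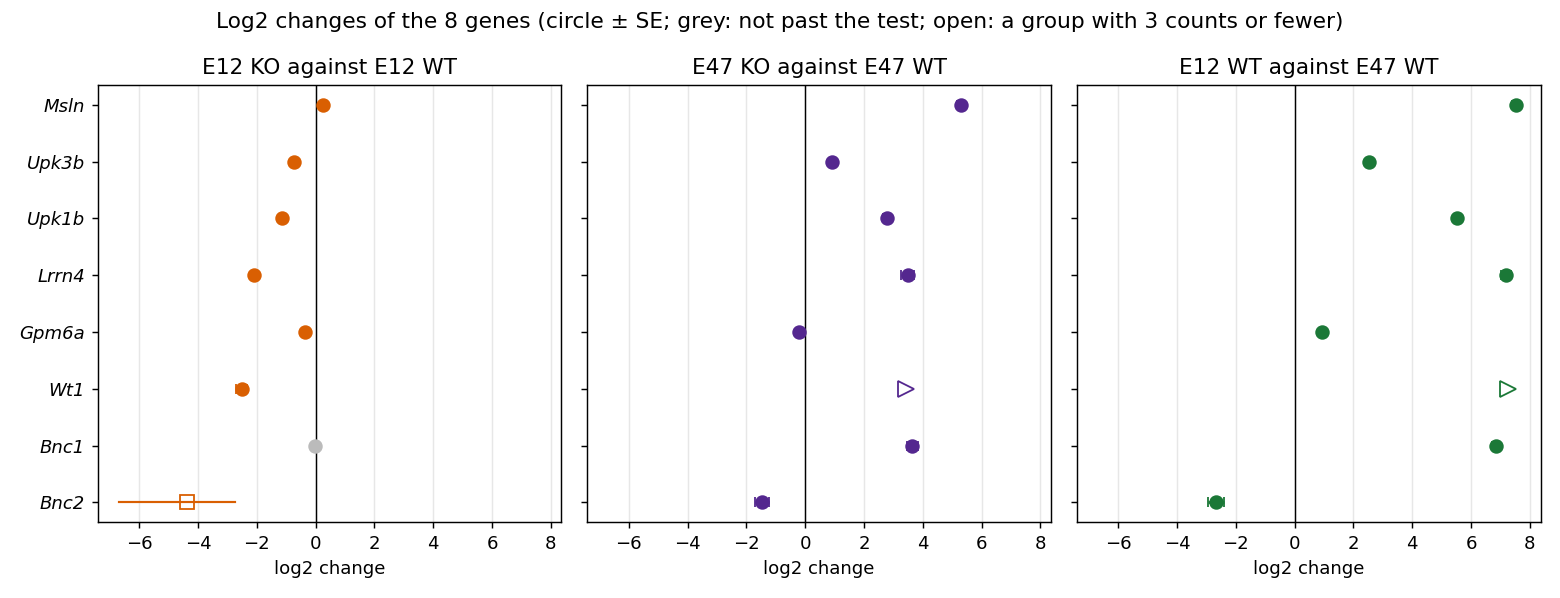
Log2 changes of the 8 genes in 3 comparisons, on 1 common axis. Circles are edgeR log2 changes ± SE, in grey where the adjusted p was 0.05 or above. Open triangles are bounds for Wt1 against E47 WT, which had 0 counts, with 3 counts taken as its floor. The open square is the ratio of counts of Bnc2 with its exact 95% interval. Of the E47 KO changes 6 lie to the right of 0, and the called E12 KO changes lie to the left for all but Msln.

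In the E12 KO, 6 of the 8 genes were lower than in E12 WT and 1, Msln, was higher, and Bnc1 did not pass the test. The background was wide: 46.4% of all tested genes were called in this comparison, 24.5% lower and 21.9% higher. The median log2 change of the 8 genes was -0.93, beside -0.01 over all tested genes. Without the E47 WT libraries in the fit, 7 were again called. Smooth muscle markers moved as well, with 6 of 10 lower and 3 higher in E12 KO and a summed level of 1919 and 1939 CPM, against 2249 and 2293 CPM in E12 WT. Endothelial markers summed to 5.94 and 6.37 CPM in E12 KO and to 13.1 and 11.2 CPM in E12 WT. Adipocyte markers were higher in 3 of 4 tested cases and lower in 0, with 33.1 and 33.6 CPM in E12 KO and 12.4 and 12.2 CPM in E12 WT. Most of that sum was Pparg, a regulator, at 27.3 CPM in E12 KO and 9.89 CPM in E12 WT. Adipoq, Plin1, Lep and Cidec, also on the adipocyte list, had 2 counts or fewer in every genotype. Schwann cell markers were higher in 2 of 4 and lower in 1, with 49.5 and 44.0 CPM in E12 KO and 31.6 and 35.5 CPM in E12 WT. The part of other cell types in these changes was not tested.

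In the E47 KO, 6 of the 8 genes were higher than in E47 WT, Gpm6a and Bnc2 were lower, and none missed the test. Over all genes 55.2% were called, 27.7% higher and 27.5% lower. The median log2 change of the 8 genes was 3.13, or 3.10 with Wt1 at its bound, beside 0.01 over all tested genes. The same comparison carried the endothelial difference: 11 of 11 tested endothelial markers were lower in E47 KO, with a summed level of 7.69 and 5.01 CPM against 773 and 705 CPM in E47 WT. Of 10 smooth muscle markers 8 were lower and 2 higher, with 2554 and 2504 CPM in E47 KO and 4748.5 and 4501 CPM in E47 WT. Adventitial fibroblast markers were higher in 6 of 10 cases and lower in 2, summing to 454 and 521 CPM in E47 KO and to 155 and 143 CPM in E47 WT. Schwann cell markers were higher in 3 of 4 tested cases and lower in 0, with 20.3 and 19.5 CPM in E47 KO and 5.87 and 5.26 CPM in E47 WT. The part of these cell types in the rise of the mesothelial genes was not tested.

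The change upon knockout differed between the isoforms for 7 of the 8 genes when the difference itself was tested, and each time the E12 change was the lower one. The count was 6 without the first E12 KO library or without the second E12 WT library, as Bnc2 then missed the threshold (adjusted p = 0.14 and 0.0501). Over all genes 48.6% were called in this test, 25.7% with the lower change in E12 and 22.9% with the higher one. The log2 difference (E12 change minus E47 change) was -5.58 for Lrrn4 (SE 0.239, adjusted p = 8.6e-11), -5.04 for Msln (SE 0.159, adjusted p = 3.1e-12) and -1.66 for Upk3b (SE 0.101, adjusted p = 4.5e-09). Gpm6a did not pass, at -0.14 (SE 0.0919, adjusted p = 0.23). For Lrrn4, Upk3b, Upk1b and Wt1 the changes had opposite directions and each was past the test.

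The wild types were farther apart in these genes than either knockout was from its own wild type for Msln, Upk3b, Upk1b, Lrrn4, Gpm6a and Bnc1. Against E47 WT, E12 WT was 184-fold higher in Msln (log2 change 7.52, SE 0.123), 146-fold in Lrrn4 (7.19, SE 0.159), 115-fold in Bnc1 (6.85, SE 0.141) and 46.2-fold in Upk1b (5.53, SE 0.113). These adjusted p-values were 2.1e-15, 2.4e-14, 1.0e-14 and 1.0e-14 in edgeR's test. Upk3b was 5.75-fold and Gpm6a 1.93-fold higher, and Wt1 at least 153-fold higher. Bnc2 was 6.35-fold lower in E12 WT (-2.67, SE 0.28, adjusted p = 1.1e-06), with a log2 change of -3.46 without the second E12 WT library and -2.10 without the first. In all, 7 genes were higher and 1 lower, where 55.4% of all tested genes were called, 27.8% higher and 27.6% lower. The median log2 change was 6.19 for the 8 genes and 0.00 for all. Endothelial markers were lower in 10 of 11 tested cases and higher in 1, Kdr (log2 change 0.73, SE 0.291, adjusted p = 0.046). They summed to 13.1 and 11.2 CPM in E12 WT and to 773 and 705 CPM in E47 WT. Smooth muscle markers were lower in 7 of 10 cases and higher in 1, with 2249 and 2293 CPM in E12 WT and 4748.5 and 4501 CPM in E47 WT. Schwann cell markers were higher in 2 of 4 tested cases, with 31.6 and 35.5 CPM in E12 WT and 5.87 and 5.26 CPM in E47 WT. The part of these cell types in the differences was not tested. The labels call both groups wild type and do not say how the populations differ otherwise.

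E47 KO lay between the wild types for every gene but Gpm6a. Against E12 WT it was lower in 7 of the 8 genes and higher in Bnc2, where 38.1% of all tested genes were called, 19.6% lower and 18.6% higher. Msln in E47 KO was at 21.5% of its mean CPM in E12 WT, Upk3b at 33.1%, Upk1b at 14.7%, Bnc1 at 10.8%, Lrrn4 at 7.78% and Wt1 at 7.02%. The higher Bnc2 level (log2 change 1.203, SE 0.333, adjusted p = 0.010) missed the threshold without the first E12 WT library (0.63, adjusted p = 0.13) and without the first E47 KO library (1.17, adjusted p = 0.063), and was 1.99 without the second E12 WT library. Adventitial fibroblast markers were higher in 8 of 10 cases and lower in 0, with 454 and 521 CPM in E47 KO and 195.5 and 202.5 CPM in E12 WT, and their part was not tested.

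The knockouts also differed from each other in all 8 genes, E12 KO being higher than E47 KO in 7 and lower in Bnc2. In this comparison 52.9% of all tested genes were called, 25.9% higher and 27% lower. Bnc1 was 9.09-fold higher in E12 KO than in E47 KO (log2 change 3.18, SE 0.0935, adjusted p = 1.2e-12) and Msln 5.57-fold (2.48, SE 0.0772, adjusted p = 2.3e-12). Upk1b was 3.10-fold, Lrrn4 3.04-fold, Wt1 2.46-fold, Upk3b 1.83-fold and Gpm6a 1.75-fold higher. Other cell types' markers moved here too, with smooth muscle markers lower in 8 of 10 cases and fibroblast markers lower in 6 of 10 and higher in 2. Fibroblast markers summed to 235 and 212 CPM in E12 KO and to 454 and 521 CPM in E47 KO. Schwann cell markers summed to 49.5 and 44.0 CPM in E12 KO and to 20.3 and 19.5 CPM in E47 KO, and adipocyte markers to 33.1 and 33.6 CPM in E12 KO and to 11.96 and 12.97 CPM in E47 KO. Pparg alone was at 27.3 CPM in E12 KO and 5.12 CPM in E47 KO. The part of these cell types was not tested. E12 KO against E47 WT gave the same split, 7 higher and Bnc2 lower, where 65% of all tested genes were called, 32.5% higher and 32.5% lower. Wt1 there was at least 26.9-fold higher, and Bnc2 was lower by a ratio of 131 (E47 WT over E12 KO, exact 95% interval 44.5 to 637), a size that rests on the 3 counts of the second E12 KO library. These comparisons share libraries with those above and are not independent of them.

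Ordered by mean CPM, Upk3b, Upk1b, Wt1 and Lrrn4 ran from E12 WT through E12 KO and E47 KO down to E47 WT, and every step was past the test. Msln had E12 KO on top, then E12 WT, E47 KO and E47 WT, with every step past the test. Bnc1 shared this lower end, but its upper neighbours, E12 WT and E12 KO, did not differ beyond their spread. Gpm6a ended with E47 WT above E47 KO. Bnc2 ran the other way, from E47 WT through E47 KO and E12 WT to E12 KO.

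Levels can be compared between genes only per length, and CPM per kilobase of exon (GENCODE M21) is used for this. In E12 KO, Upk1b, Msln, Upk3b and Gpm6a were close together at 89.4 ± 3.0, 79.9 ± 3.53, 71.9 ± 1.91 and 65.9 ± 2.18 CPM per kilobase (SD, n = 2). In E12 WT, Upk1b led with 196 ± 3.16, ahead of Upk3b with 119 ± 8.40, Gpm6a with 84.4 ± 3.29 and Msln with 66.9 ± 4.02. The factors were lower than these surface protein genes in both: Bnc1 was at 16.9 ± 1.29 in E12 KO and 17.1 ± 0.0532 in E12 WT, and Wt1 at 0.323 ± 0.0725 and 1.88 ± 0.0919. Lrrn4, the remaining surface protein gene, was below Bnc1 in E12 KO, at 6.09 ± 0.460, and above it in E12 WT, at 26.0 ± 0.589. Upk3b and Gpm6a led in E47 KO with 39.4 ± 1.27 and 37.7 ± 0.434. E47 WT kept Gpm6a at 43.8 ± 0.426 and Upk3b at 20.7 ± 0.777 CPM per kilobase, and the next, Upk1b, was at 4.36 ± 0.964. Acta2 on the same scale averaged 746 in E12 KO, 889 in E12 WT, 960 in E47 KO and 1624 in E47 WT, more than any of the 8 genes in each genotype.

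Other markers of mesothelium, a list of 20, were in part at or near 0 counts. Calb2 (calretinin), Itln1 (intelectin), Muc16 and Slpi had 5 counts or fewer in every genotype, although they are used to identify mesothelial cells. Of the 20, 14 were tested. Their summed level, with all 20 genes, was 1941 and 2045 CPM in E12 KO, 3129 and 3074 CPM in E12 WT, 1209.5 and 1185.5 CPM in E47 KO, and 819 and 817 CPM in E47 WT, which is the order that Upk3b and Upk1b had. Ezr, which links membrane to actin in microvilli, was the largest part of that sum in every genotype. It was at 1157 CPM in E12 KO, 1694.5 in E12 WT, 511 in E47 KO and 270 in E47 WT, the same order as the sum. Not all of the list shared that order: Krt18, Aldh1a2 and Cdh3 were highest in E47 WT, at 117, 83.9 and 67.9 CPM.

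In E12 KO, 8 of the 14 tested markers were lower and 3 higher, with a median log2 change of -0.86. Aldh1a2, the retinoic acid synthesis enzyme of the epicardium, fell to 0.355 ± 0.0926 CPM in E12 KO, against 14.9 ± 0.255 CPM in E12 WT (log2 change -5.39, SE 0.213, adjusted p = 4.3e-11). Thbd, the thrombomodulin gene, which mesothelium shares with endothelium, fell by a log2 change of -1.40. Nkain4, whose product interacts with the sodium pump, fell as well (-2.21), as did Crb2, a cell polarity gene (-1.89). The higher ones were Krt18 (2.22), Cdh1 (0.73) and Cdh3 (0.71). The test passed 46.4% of all genes here, and the call of Muc1 rests on 4 counts in E12 KO against 12 in E12 WT.

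In E47 KO, 8 of the 14 were higher and 5 lower than in E47 WT, with a median log2 change of 0.73, where 27.7% of all tested genes were higher and 27.5% lower. Anxa8, an annexin gene, was at 351 ± 18.8 CPM in E47 KO against 9.75 ± 0.717 CPM in E47 WT (log2 change 5.16, SE 0.0899, adjusted p = 4.9e-15). Krt19, a keratin of simple epithelia, was at 152 ± 5.72 CPM in E47 KO against 13.0 ± 0.910 CPM in E47 WT (3.54, SE 0.0938, adjusted p = 3.0e-13). Krt18, another keratin of simple epithelia, went the opposite way, with 1.18 ± 0.126 CPM in E47 KO against 117 ± 7.84 CPM in E47 WT (-6.63, SE 0.14, adjusted p = 3.7e-14), while its usual partner Krt8 had 1 to 11 counts per genotype. Thbd fell in E47 KO (log2 change -2.44). Anxa8 was at 337 ± 1.84 CPM in E12 KO and 347 ± 16.2 CPM in E12 WT, which overlapped.

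**Figure D3:**
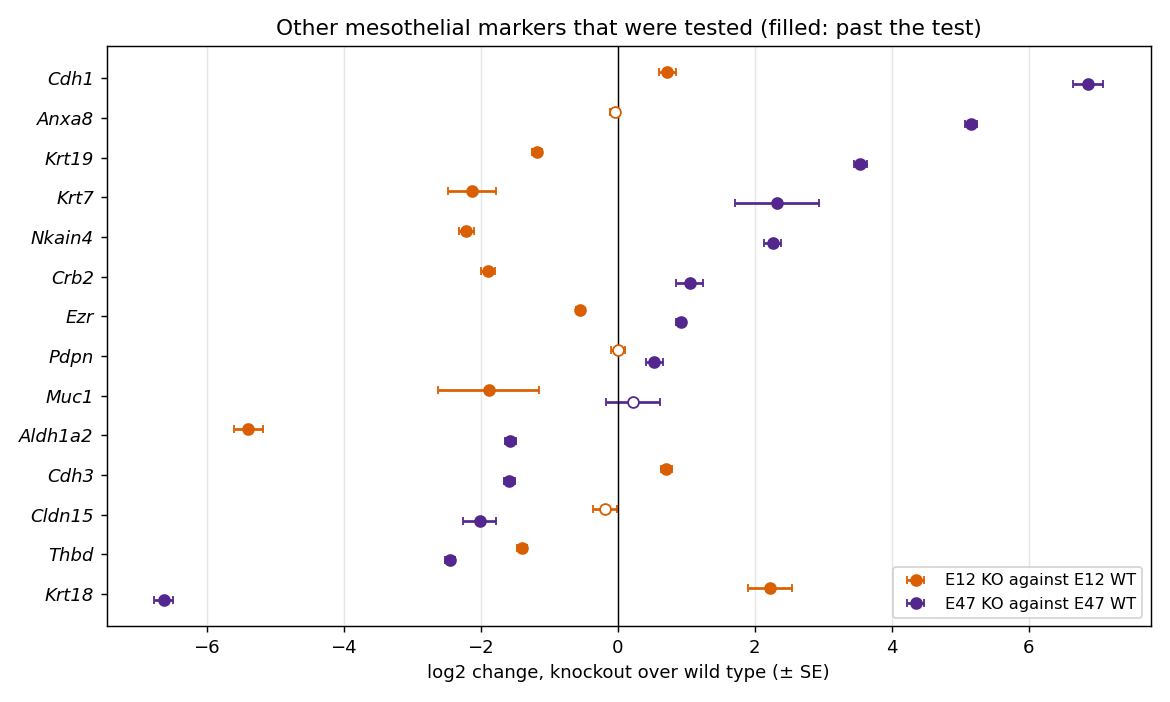
Log2 change of the 14 tested genes among the other mesothelial markers, knockout over wild type, for E12 (orange) and E47 (purple). Points are edgeR log2 changes and bars their SE, and filled points had an adjusted p under 0.05. Krt19, Krt7, Nkain4, Crb2 and Ezr lie below 0 for E12 and above 0 for E47, and Krt18 and Cdh3 lie the other way, all of them filled in both comparisons.

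Regulators of the epicardium and mesothelium did not share 1 direction. Of 10 listed 9 were tested, and Tcf21, which marks epicardial cells bound for fibroblasts, had 0 counts in all 8 libraries. In E12 KO 3 were higher and 4 lower, with a median log2 change of 0.00, where 46.4% of all tested genes were called. Tbx18, an epicardial T-box factor, was at 24.4 ± 2.90 CPM in E12 KO and 106 ± 5.65 CPM in E12 WT (log2 change -2.13, SE 0.0905, adjusted p = 1.1e-10), and 20.6% of its exon bases overlap a gene on the opposite strand. Sema3d, a secreted guidance factor, fell by 2.17, and Tbx20 and Nr2f1, factors of heart and neural development, rose by 2.52 and 3.83. The remaining lower ones, Gata4 and Hand2, had 0 counts in E12 KO, against 178 and 19 in E12 WT. The remaining higher one, Gata6, rose by 0.21. In E47 KO 3 were higher and 2 lower of the 9, a share close to the 55.2% called over all tested genes, with Sema3d at 0.77, Nr2f2 at 0.65, Tbx18 at -0.38 and Nr2f1 at 0.81 on the log2 scale.

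Family relatives of the 8 genes mostly had few counts. Of 14 listed relatives 3 were tested, and Upk3a had 0 counts and Strc 1 count over all libraries. Lrrn4cl, a gene similar to part of Lrrn4, was at 3.91 ± 0.00356 CPM in E12 KO, 24.1 ± 1.03 in E12 WT, 8.08 ± 0.266 in E47 KO and 2.32 ± 0.852 in E47 WT. It fell in E12 KO by 2.62 (SE 0.15, adjusted p = 2.4e-09) and rose in E47 KO by 1.71 (SE 0.186, adjusted p = 2.1e-06) on the log2 scale. Gpm6b, the closest relative of Gpm6a, averaged 0.03 CPM in E12 KO, 0.165 in E12 WT, 0.375 in E47 KO and 3.16 in E47 WT, and fell in E47 KO by 3.04 (SE 0.367, adjusted p = 6.1e-06). The uroplakin relatives Upk1a, Upk2 and Upk3bl, the mesothelin relatives Mslnl and Otoa, and Lrrn1, Lrrn2 and Lrrn3 had at most 11 counts in any genotype.

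**Figure D4:**
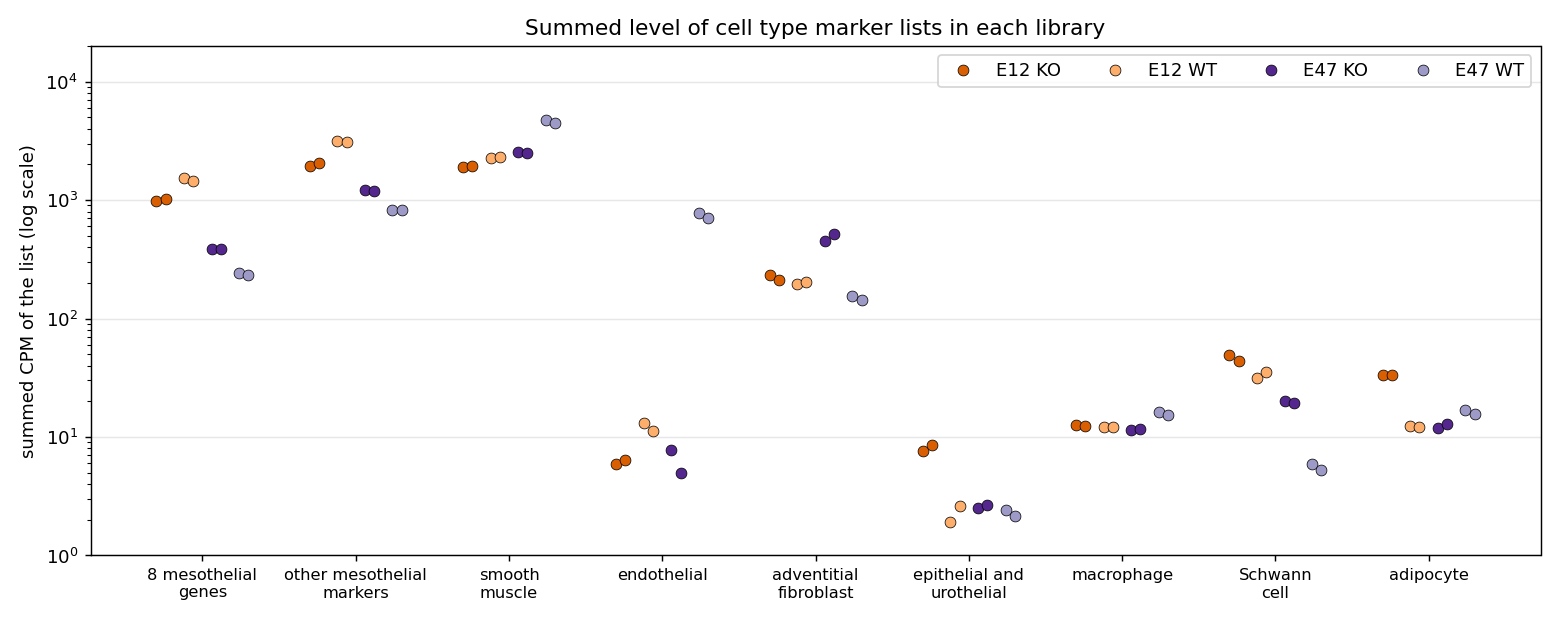
Summed CPM of 9 marker lists in each library, on a log axis, coloured by genotype. The 8 mesothelial genes and the other mesothelial markers are highest in E12 WT and lowest in E47 WT. The endothelial list is at 773 and 705 CPM in E47 WT and under 14 CPM elsewhere, and epithelial and urothelial markers stay under 10 CPM in all 8 libraries.

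Markers of bladder lining and other stratified or glandular epithelium, which share uroplakins with mesothelium, were low. Of 12 listed, 3 were tested, and they summed to 7.63 and 8.59 CPM in E12 KO, 1.91 and 2.62 CPM in E12 WT, 2.49 and 2.67 CPM in E47 KO, and 2.44 and 2.14 CPM in E47 WT. Esrp1 had 0 counts in all libraries and Epcam 1 count. Krt14 made up most of the E12 KO sum, at 6.97 ± 1.19 CPM. Macrophage markers summed to between 11.4 and 16.4 CPM in all 8 libraries, but single markers moved in opposite directions. Lyz2 averaged 0.151 CPM in E12 KO, 0.873 in E12 WT, 1.75 in E47 KO and 11.8 in E47 WT. Cd14 averaged 10.3 CPM in E12 KO, 6.80 in E12 WT, 8.10 in E47 KO and 1.27 in E47 WT. Ptprc, Adgre1, Itgam, Mrc1, Fcgr1 and C1qa had 2 counts or fewer in every genotype.

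The genes whose pattern over the 8 libraries was most like each of the 8 were found by Pearson's r of log2 CPM. The search covered 11104 tested genes with a mean of at least 2 CPM. Symbols of predicted genes or clones, and symbols turned into dates, were left out. The libraries fall into 4 genotypes, so r mostly reflects 4 levels and is given as a description. For Msln the closest was Ptgs1, a cyclooxygenase gene (r = 0.999), at 127 CPM in E12 KO, 111 in E12 WT, 66.2 in E47 KO and 16.3 in E47 WT, followed by Cystm1 and Lpar2 (both r = 0.998). For Upk3b they were Tuba4a (0.998), Nkain1 (0.996) and Fads1 (0.995), and for Upk1b Gsto1 (0.997), Inava (0.996) and Zic5 (0.994). Wt1 and Lrrn4 shared their closest gene, Irf5, an interferon regulatory factor (r = 0.997 and 0.998), with 6.88 CPM in E12 KO, 17.4 in E12 WT, 4.24 in E47 KO and 1.21 in E47 WT. Wt1 was next followed by Gprc5a and Lpcat4 (both 0.995), and Lrrn4 by Gsto1 and Rnft1 (both 0.996). Bnc1 was closest to Prr15l (0.997), Olfml2b (0.997) and Nudt1 (0.996). Olfml2b, an extracellular olfactomedin-like gene, was abundant, at 1183 CPM in E12 KO, 1196.5 in E12 WT, 261 in E47 KO and 76.0 in E47 WT. Gpm6a had weaker matches in Fgfr1op2 (0.988), Cdca3 (0.987) and Rnf157 (0.986). Bnc2 was closest to Eya4 (0.992), Zfhx4 (0.991) and Stox2 (0.990), and Zfhx4 was at 0.114 CPM in E12 KO, 1.59 in E12 WT, 3.92 in E47 KO and 15.6 in E47 WT.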

How the data were processed

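Messenger RNA was measured in 8 libraries of cultured mouse aortic smooth muscle cells, grouped by the genotype in the labels. Per the labels' protocols, the libraries were polyA-enriched and unstranded. FastQC, HISAT, featureCounts and the genome GRCm38 (mm10) appear in the submitters' processing notes, with no version or setting. What the authors deposited are raw counts per gene symbol, 1 column per library, not normalized or pooled. Symbols that had been turned into dates (0.153% to 0.198% of a library's counts) were kept.

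The analysis used edgeR 4.0.16 under R 4.3.3, with its filter on low counts, TMM scaling, 1 fit of the 4 genotypes without covariates, and the quasi-likelihood F test with Benjamini-Hochberg adjustment over 13992 genes (common biological coefficient of variation 0.0598, 4 residual degrees of freedom). The method was tested on simulated data. Alternatives were DESeq2 1.42.0, size factors by median of ratios, no filter, fits of 2 groups, and fits without each library or without E47 WT. Positions and exon lengths are from GENCODE M21, and promoter windows from RefSeq (GRCm38.p6). All 134 listed symbols were matched in both table and annotation.

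The 8 genes, the lists and the tests were chosen with earlier results of these data known. From each list of other mesothelial markers, regulators and WT1 targets, up to 4 tested genes with the lowest p in a comparison are named, with relatives of the 8 genes that had at least 3 counts, the 3 most similar genes by correlation, and list sums for other cell types. One of the relatives is not reported here. Others, such as Calb2, Tcf21, Gata4, Hand2, Gata6, Ezr, Cdh3, Krt8, Kdr, Pparg, Lyz2, Cd14, Bcl2 and Nes, were named after their values were seen.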

Additional observations from a re-analysis of the deposited data

Results flagged for a closer look

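For 7 of the 8 genes the change upon knockout differed between E12 and E47 in the test of the difference itself, in edgeR's quasi-likelihood test across all genes, where 48.6% of all tested genes passed. The log2 difference (E12 change minus E47 change) was -5.58 for Lrrn4, -5.04 for Msln, -3.90 for Upk1b, -3.66 for Bnc1 and -1.66 for Upk3b. For Wt1, with 0 counts in E47 WT, and Bnc2, with 3 counts in E12 KO, a fitted difference has no fixed size and only the adjusted p is given, 1.3e-06 for Wt1 and 0.015 for Bnc2. The Bnc2 difference missed the threshold without the first E12 KO library (adjusted p = 0.14) and without the second E12 WT library (adjusted p = 0.0501).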

How the results depend on the processing

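No paired analysis was possible because the labels give no replicate number shared between genotypes. Of 1118 recomputed values, 424 counts and 678 changes of single genes kept their direction and their side of the threshold, or stayed within 1.5 times the count. Median-of-ratios size factors, DESeq2, fits of 2 groups and the fit without E47 WT altered no call on the 8 genes, and the size factors moved the median of all genes by under 0.1 (log2). With each library left out in turn, the members called higher in E12 KO against E12 WT ranged from 0 to 1, those called lower in E47 KO against E47 WT from 1 to 2, and those called higher in E47 KO against E12 WT from 0 to 1. The genes lost were Msln, Gpm6a and Bnc2, with values given above, and the Bnc2 difference between the knockout changes was also lost. The cause was not tested. Bnc1, which was not called in E12 KO, ranged from -0.0902 to 0.0649 with a library left out (highest without the first E12 KO library, adjusted p = 0.60) and was 0 with no filter on low counts. Depth limits Wt1 and Bnc2, the genes with 3 counts or fewer in a genotype.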

Other observations

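Reported direct targets of the WT1 protein, a list of 14, were read beside Wt1 itself, and 9 were tested. In E12 KO, where Wt1 was lower, 5 of them were lower and 3 higher than in E12 WT (median log2 change -0.58, with 46.4% of all tested genes called). Aldh1a2 fell by 5.39, Snai1, a repressor of E-cadherin, by 2.23, Podxl, which encodes podocalyxin, by 1.74, and Itga4, an integrin chain of the epicardium, by 1.25 on the log2 scale. The 3 higher ones were Cdh1 (0.73), Bcl2 (0.50) and Nes (0.47). In E47 KO, where Wt1 was higher, 4 were higher and 4 lower than in E47 WT (median 0.31, with 55.2% called). Cdh1, E-cadherin, was at 36.3 ± 2.96 CPM in E47 KO against 0.332 ± 0.138 CPM in E47 WT (log2 change 6.87, SE 0.216, adjusted p = 1.7e-12), Podxl rose by 2.39 and Wnt4 by 4.71, and Aldh1a2 fell by 1.57. Podxl had the order of Wt1 except that E47 KO was above E12 KO, with 36.4 ± 0.918 CPM in E12 KO, 122 ± 5.98 in E12 WT, 58.5 ± 2.74 in E47 KO and 11.2 ± 0.463 in E47 WT. Cdh1 was thus higher in both knockouts, and Aldh1a2 lower in both. The numbers higher and lower do not separate targets by the direction in which WT1 is reported to act. The part of WT1 in these changes was not tested. Aldh1a2 and Cdh1 are also among the other mesothelial markers. Nphs1 and Nr0b1 had 0 counts in all 8 libraries.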
